A study of Saccharomyces cerevisiae with 8 samples.

Results

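The comparison described here sets budding yeast cells 30 min after rapamycin against cells 15 min after rapamycin, in a strain whose nuclear poly(A)-binding protein Nab2 can be tethered away from the nucleus. It rests on 4 of the 8 libraries of the study, the 2 at 15 min and the 2 at 30 min, chosen by their labels, and it was made across all features of the count table. The anchor-away strain (Y3284) carries tor1-1, a deletion of FPR1, RPL13A fused to a pair of FKBP12 domains, and NAB2 fused to FRB. Its mating type is given as MAT without a letter. The same strain without rapamycin (0 min) and a control strain after 30 min of rapamycin (Y2615, MATa, with the same alleles but an untagged NAB2) were also sequenced, each in 2 libraries. All groups therefore share tor1-1, the FPR1 deletion and the tagged RPL13A. Cells grew in YPAD at 30 °C, and rapamycin was used at 1 µg/ml. The 2 libraries of each group are described as biological replicates, and no control library at 15 min is used here, so that the length of Nab2 anchoring and the length of rapamycin exposure cannot be told apart between the 2 times.

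Nab2 binds the poly(A) tails of new messenger RNAs in the nucleus and takes part in their 3′ end formation, protection and export. In anchor-away, rapamycin joins the FRB and FKBP12 tags, and the newly made ribosomal protein Rpl13A carries the tagged nuclear protein out to the cytoplasm. The tor1-1 allele and the loss of FPR1 make cells insensitive to the growth arrest that rapamycin otherwise causes. Ribosomal protein genes matter in such a series because they are among the most transcribed genes of growing yeast, most occur as a pair of near-identical copies (paralogs), and they hold a large share of all yeast introns.

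The 2 libraries at 15 min held 9308525 and 7562684 counts, and those at 30 min held 9207031 and 4832947. The share of features with no count was 24.4% and 12.9% at 15 min (replicates 1 and 2) and 9.18% and 28.2% at 30 min. In 30 min replicate 2, 241 features were at 0 although the other 30 min library held at least 50 counts for them. NAB2 itself was listed at 164 and 174 CPM (counts scaled to a common library total with edgeR's TMM factors) at 15 min and at 203 and 228 CPM at 30 min, a log2 difference of 0.35 ± 0.28 (SE) that did not pass (edgeR adjusted p = 0.744); tethering moves the protein, so this level does not check it. FPR1, deleted in the strain, lay between 0 and 2.48 CPM in these 4 libraries. The 4 markers of mating type alpha summed to 2360 and 2157 CPM at 15 min and to 983 and 2200 CPM at 30 min, against 49.2 and 52.2 CPM in the control, and none was at 0 at 15 and 30 min. The 6 measured markers of mating type a summed to 29.4 to 40.6 CPM in the 4 libraries and to 356 and 304 CPM in the control. The 5 measured of 7 markers of meiotic cells summed to 10.5 and 20.2 CPM at 15 min and to 15.0 and 13.0 CPM at 30 min. In a wider list of meiotic genes, 12 were tested and none passed, and their median log2 difference was 0.86 from 15 to 30 min, 0.97 from 0 to 15 min and 3.45 at 30 min over the control. Its feature YLR342W-A/GAS2 was at 28.9 and 68.5 CPM at 15 min and at 74.9 and 25.1 CPM at 30 min, and SPR3 at 0 and 1.16 CPM and then 2.06 and 37.1 CPM; the part of these genes in other results was not tested. The control strain thus differed from the anchor-away strain in the expression of mating-type markers, and the part of this in differences from the control was not tested.

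Over the second 15 min, with TMM scaling and all 8 libraries, far more features passed as lower than as higher. This balance changed with the scaling and with single libraries, as given below. Whether passing or not, 2982 features had a log2 difference above 0 and 3209 below. Of 6191 features tested, 26 fell and 2 rose at an adjusted p under 0.05 in edgeR's quasi-likelihood test, 28 in all, which is 0.452% of the features (0.42% lower and 0.0323% higher). The falls ranged from 2.31- to 6.10-fold. They took in 9 genes for ribosomal proteins, the transcript of HAC1 and its intron, and several genes of the endoplasmic reticulum (ER) and its products. The ER genes were grouped after their values were seen. The rises were RNR1 and HSP42. For each of the 28, both libraries of one time lay outside the range of the other time; 18.7% of all features had both 30 min libraries above both 15 min libraries, and 22.2% had both below.

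**Figure D1:**
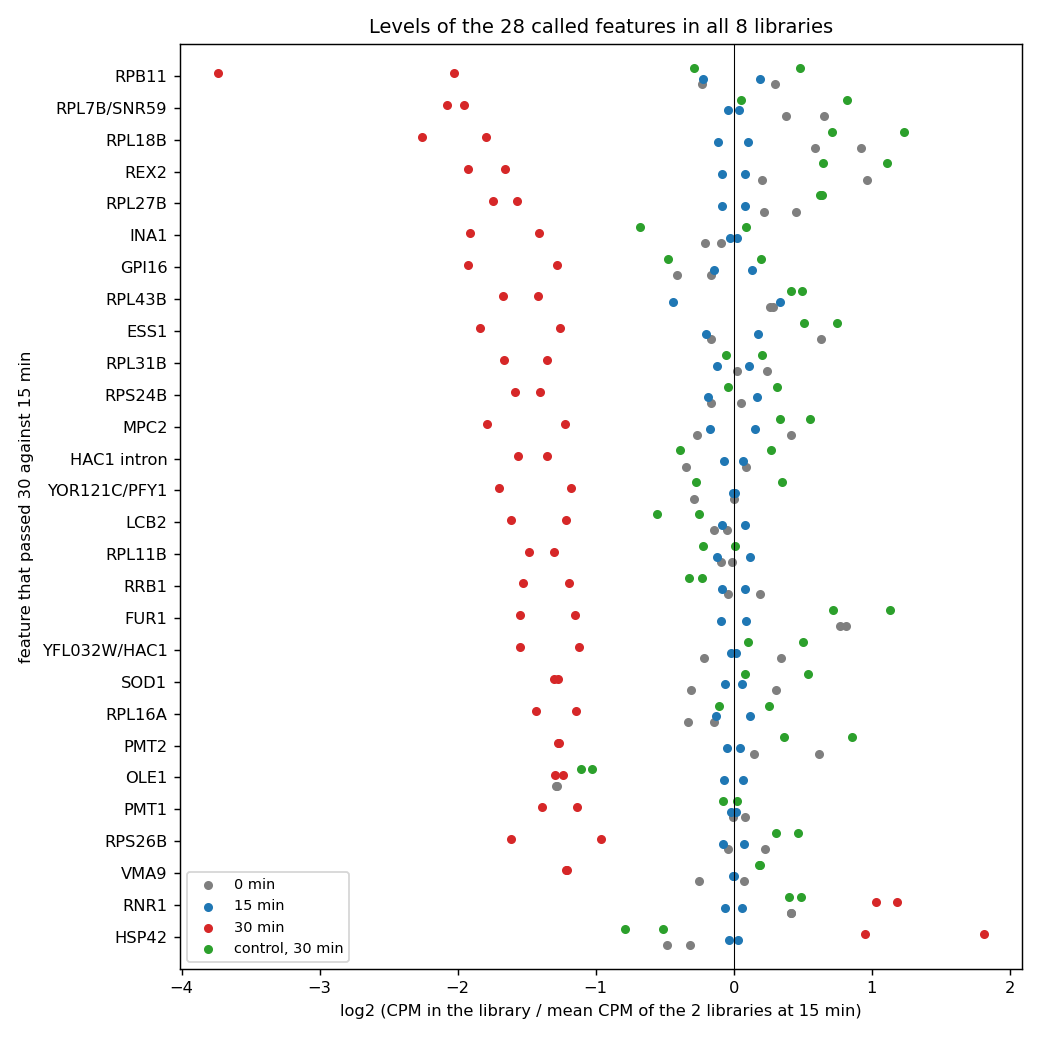
Levels of the 28 features that passed the test, in all 8 libraries, as log2 of the CPM over the mean CPM of the 2 libraries at 15 min; each point is 1 library. The red points (30 min) lie left of the blue points (15 min) for the 26 falls and right of them for RNR1 and HSP42.

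How many features passed depended strongly on single libraries. With all 8 libraries, 7.51% of features were lower and 3.12% higher at an unadjusted p under 0.05. No feature passed edgeR's test without 15 min replicate 1 (264 at an unadjusted p under 0.05) or without 30 min replicate 2 (557), 4 rises and no fall passed without 15 min replicate 2 (694), and 282 passed without 30 min replicate 1. All 28 kept their direction in each of these fits and in all other alternatives in which they could be tested. For each of them both libraries of one time lay outside the range of the other time. Leaving out 1 library could therefore hardly turn a direction, and the kept direction is no independent check of the calls. The table holds no spike-in features, so each change is relative to the bulk of RNA in the library, and lower RNA per cell and fewer cells holding the RNA cannot be told apart; with scaling by total library size the median of all features moved to 0.33 from -0.04, and 3 rises and 2 falls passed.

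**Figure D2:**
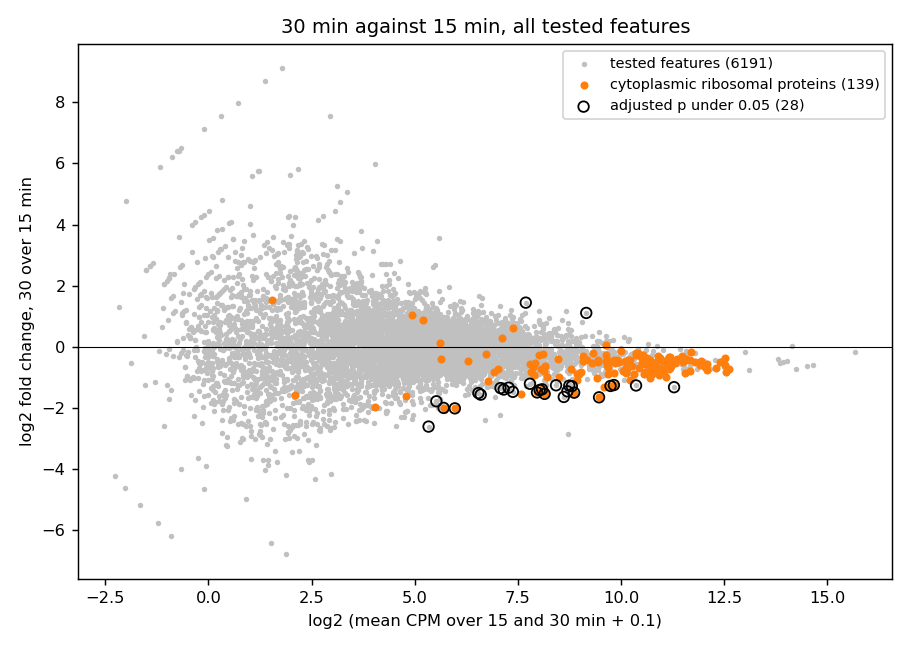
Each point is 1 tested feature, with its mean level over 15 and 30 min on the horizontal axis (log2 CPM) and its log2 fold change from 15 to 30 min on the vertical axis. Ribosomal protein genes (orange) lie mostly below 0, and the 28 circled features passed the test.

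The levels at 15 min were close to those at 0 min for most of the falls. Of the 26, 21 had a log2 difference between 15 and 0 min within 0.5 of 0. The share of all features within that range was not counted, so this is not shown to be particular to the falls. Only OLE1 passed the test of 15 against 0 min, as higher at 15 min (0.162% of all features passed it, 0.145% as higher and 0.0162% as lower). At 30 min, all 26 lay below both control libraries and 25 lay below both 0 min libraries. The share of all features that did so was not counted, and the 26 were picked for low values in these same 30 min libraries. The comparisons of 30 min with 0 min and with the control share the 30 min libraries with the comparison of 30 with 15 min: side by side, 25 of the 26 passed as lower against 0 min, where 2.76% of all features passed, 2.26% as lower, and 25 against the control, where 6.07% passed, 4.76% as lower. Of the 2 rises, HSP42 passed as higher against 0 min, where 0.501% of all features did, and against the control, where 1.31% did; RNR1 passed neither test.

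Ribosomal protein genes were lower at 30 min as a group, and 9 of the 139 tested fell, 7 of 82 for the large subunit and 2 of 57 for the small subunit, beside 0.42% of all features. The log2 difference was below 0 for 132 of the 139, with a median of -0.61, against -0.04 for all features; between 0 and 15 min the median of the same genes was 0.18. No member rose. DESeq2's Wald test called 39 of the 139 lower and limma-voom 26. Over all 6191 features DESeq2 called 134 lower and 26 higher, and limma-voom 70 lower and 6 higher. These totals stand beside the counts by both tools for the lists below. The RPL13A gene that carries the anchor was at 250 and 279 CPM at 15 min and at 117 and 239 CPM at 30 min, and did not pass (log2 -0.58 ± 0.31, edgeR adjusted p = 0.543).

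RPL27B (chrIV:1401770-1402564) had the smallest adjusted p of all features. Its level was 1013 and 1137 CPM at 15 min and 322 and 363 CPM at 30 min, against 1470 and 1249 CPM at 0 min and 1670 and 1660 CPM in the control. Both libraries at 30 min thus lay below the other 6. The log2 fold change from 15 to 30 min was -1.65 ± 0.25 (SE; edgeR adjusted p = 0.0187). RPL18B (chrXIV:63570-64562) had the larger fold, from 89.3 and 77 CPM to 24.0 and 17.4 CPM, a log2 change of -1.998 ± 0.34 (edgeR adjusted p = 0.0206). RPL7B, counted together with the small nucleolar RNA SNR59 inside it, went from 103 and 97.6 CPM to 26.0 and 23.8 CPM (-2.01 ± 0.34).

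The other 6 ribosomal protein genes that fell, RPL43B, RPL31B, RPS24B, RPL11B, RPL16A and RPS26B, had log2 changes from -1.25 to -1.54. Among them the large-subunit gene RPL43B varied most between replicates at 15 min, at 311 and 533 CPM, and stood at 133 and 158 CPM at 30 min (-1.54 ± 0.27, edgeR adjusted p = 0.0216). The small-subunit gene RPS26B varied most at 30 min, at 418 and 658 CPM, after 1347 and 1213 CPM at 15 min (-1.25 ± 0.27, edgeR adjusted p = 0.0474). In neither gene did the libraries of the 2 times overlap, which holds for each of the 28 features that passed.

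The paralogs of 8 of the 9 genes are described here; each encodes a nearly identical protein, and none of these 8 paralogs passed. RPL27A stood at 2590 and 3139 CPM at 15 min and at 1696 and 2502 CPM at 30 min, a log2 difference of -0.45 ± 0.27 (edgeR adjusted p = 0.601). The paralog with the lowest log2 difference among them was RPL7A, at -1.60 ± 0.57 and mean levels of 41.5 CPM at 15 min and 13.7 CPM at 30 min. The copies that passed were picked by that test, and the difference between the copies was not tested. In 7 of these 8 pairs the copy that fell was the one with the lower level at 0 min per kilobase of coding sequence, as for RPL27B (3309 CPM per kb) and RPL27A (6681 CPM per kb); RPL7B was the exception. Over all 57 pairs with both copies tested, the copy with the lower level at 0 min had the lower log2 difference in 28, with medians of -0.69 for the lower and -0.57 for the higher copies.

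**Figure D3:**
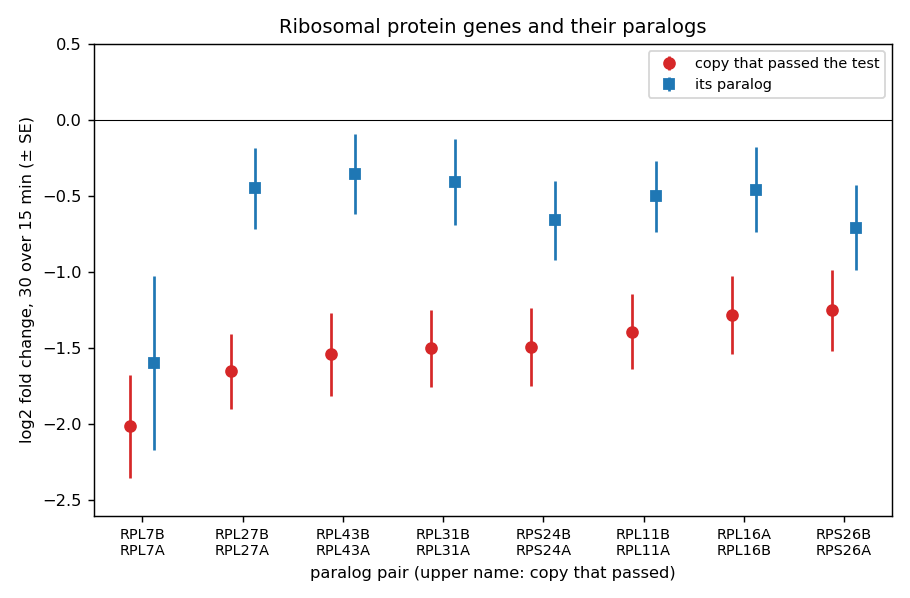
Log2 fold change from 15 to 30 min, with its standard error, for 8 of the ribosomal protein genes that passed the test (circles) and for their paralogs (squares). All 16 values are below 0, and each copy that passed lies below its paralog.

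How far reads could be told apart between copies differed among the pairs. No stretch of 40 bases of the coding sequences of RPL27B, RPS26B, RPL43B, RPL16A and RPL31B recurred in the paralog. In RPS24B 45.3% of such stretches did, in RPL7B 60.6% and in RPL11B 63.8%. No source used here states the read length or how reads that match both copies were counted, and the values of those 3 genes are uncertain for that reason.

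Of the 9 genes, 8 have an intron and RPL11B has none. Among ribosomal protein genes, 8 of 102 with an intron fell (median log2 difference -0.63) and 1 of 37 without (median -0.58). Among other open reading frame (ORF) transcripts with an intron, 3 of 157 fell, and their median was -0.29 (0.06 with scaling by total library size). In all, 11 of the 26 falls, or 42.3%, carry an intron, beside 4.18% of the features tested. The 11, and the 3 that are not ribosomal, include YFL032W/HAC1, whose intron is removed in the cytoplasm as described below. The 71 tested introns themselves had a median of 0.18, and only that of HAC1 fell in edgeR's test.

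Short transcripts were lower at 30 min than long ones across the whole table. ORF transcripts were divided into 5 groups of like size by coding length. The shortest group (78 to 687 bases) had a median log2 difference of -0.38, and the medians of the next 4 groups were -0.11, -0.05, 0.09 and 0.13. The shortest group held 14 of the falls. Introns and features that join several genes, such as YFL032W/HAC1, were not placed in a group, so not all 26 falls are covered. Divided in the same way without ribosomal protein genes, the shortest group held 6 of the falls. Its median was -0.27, and that of the longest group was 0.12. The same order, with medians from -0.25 to -0.01, was seen between 0 and 15 min, and its part in the falls was not tested.

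**Figure D4:**
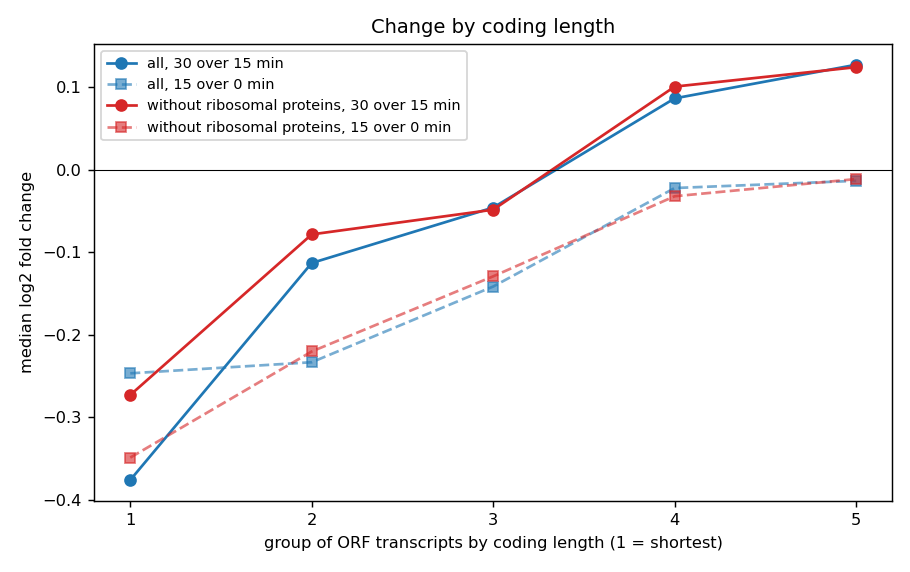
Median log2 fold change of ORF transcripts in 5 groups of equal size by coding length, for 30 over 15 min (circles, solid lines) and 15 over 0 min (squares, dashed lines), with all transcripts (blue) and without ribosomal protein genes (red). The median from 15 to 30 min goes from -0.38 in the shortest group of all transcripts to 0.13 in the longest.

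HAC1, the transcription factor gene of the unfolded protein response, fell both as a transcript and in its intron feature. Its messenger RNA keeps an intron that is removed in the cytoplasm by the endonuclease Ire1 and the tRNA ligase, only when unfolded proteins build up in the ER, and the intron blocks translation until then. In the reference of build R64 the intron covers chrVI:75840-76091 on the plus strand, 252 bases inside the coding sequence. Both ends are shown with 25 bases of exon and 25 of intron (chrVI:75815-75864 and chrVI:76067-76116, R64, plus strand, from RefSeq), since these junctions bound the intron that was counted as a feature of its own. Capitals mark the 7 bases around each cut, which follows the third capital.
HAC1 5′ junction: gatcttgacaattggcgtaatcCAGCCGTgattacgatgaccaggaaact
HAC1 3′ junction: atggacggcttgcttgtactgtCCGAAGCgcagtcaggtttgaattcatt

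The HAC1 transcript, which the table counts together with an overlapping frame as YFL032W/HAC1, went from 3525 and 3615 CPM at 15 min to 1218 and 1640 CPM at 30 min, against 4532 and 3077 CPM at 0 min and 3840 and 5064 CPM in the control. Both libraries at 30 min lay below the other 6, and the log2 change was -1.32 ± 0.28 (edgeR adjusted p = 0.0474). The HAC1 intron went from 640 and 580 CPM to 238 and 206 CPM, a log2 change of -1.46 ± 0.27 (edgeR adjusted p = 0.0317). The intron lies within the transcript, so these are not independent measurements. Per 100 counts of the transcript the intron had 18.2 and 16.0 counts at 15 min and 19.6 and 12.6 counts at 30 min. The libraries of the 2 times overlapped in this ratio, which was 14.3 and 15.6 at 0 min.

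Genes for proteins that work in the ER membrane were also among the falls. PMT2 and PMT1 encode the protein O-mannosyltransferases that act as a pair. PMT2 went from 628 and 587 CPM at 15 min to 252 and 251 CPM at 30 min (log2 -1.27 ± 0.26, edgeR adjusted p = 0.0400), and PMT1 from 479 and 492 CPM to 220 and 185 CPM (-1.26 ± 0.24, edgeR adjusted p = 0.0317). The libraries of the 2 times stood far apart in both genes and close together within each time. GPI16, a subunit of the complex that attaches GPI anchors, went from 159 and 131 CPM to 59.5 and 38.1 CPM (-1.56 ± 0.34, edgeR adjusted p = 0.0474). LCB2, a subunit of serine palmitoyltransferase at the start of sphingolipid synthesis, went from 219 and 195 CPM to 89.2 and 67.7 CPM (-1.40 ± 0.28, edgeR adjusted p = 0.0358). These genes were chosen as a group after their values were seen. No list of ER genes was drawn up, so the share of such genes that fell was not counted.

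The largest fold was that of RPB11, a small subunit of RNA polymerase II. RPB11 stood at 79.3 and 59.5 CPM at 15 min and at 17.0 and 5.22 CPM at 30 min, a log2 change of -2.61 ± 0.52 (edgeR adjusted p = 0.0358); at 0 min it was at 85.2 and 59.1 CPM. The 30 min replicates differed widely from each other, but both lay below all other libraries. RPB11 was the only one of 14 tested subunits of this polymerase to pass in edgeR's test, and the median of the 14 was -0.20 (0.16 with scaling by total library size). ESS1, the prolyl isomerase of the polymerase's C-terminal domain, went from 120 and 156 CPM to 57.8 and 38.7 CPM (-1.51 ± 0.33, edgeR adjusted p = 0.04999, just under the threshold). The RNA exonuclease gene REX2 went from 67.1 and 75.4 CPM to 22.5 and 18.8 CPM (-1.78 ± 0.37, edgeR adjusted p = 0.0400).

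Further falls were spread over metabolism and transport. INA1 went from 584 and 603 CPM to 223 and 158 CPM (log2 -1.64 ± 0.28, edgeR adjusted p = 0.0206). MPC2, a subunit of the mitochondrial pyruvate carrier, changed by -1.47 ± 0.30, and SOD1, the cytosolic copper-zinc superoxide dismutase, by -1.29 ± 0.27, from 608 and 663 CPM to 264 and 257 CPM. FUR1, which salvages uracil, changed by -1.34 ± 0.26, and VMA9, a membrane subunit of the vacuolar proton pump, by -1.21 ± 0.25. The feature that joins YOR121C with PFY1, the profilin gene, changed by -1.41 ± 0.28. The adjusted p of these last 5 in edgeR's test lay between 0.0358 and 0.0438. In each of them, as in all 26 falls, both libraries at 30 min were below both at 15 min.

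RRB1, the chaperone of ribosomal protein L3, was the only one of 96 tested ribosome biogenesis genes to pass in edgeR's test (DESeq2 called 6 lower and limma-voom 3), going from 205 and 184 CPM to 84.8 and 67.5 CPM (log2 -1.35 ± 0.27, edgeR adjusted p = 0.0371). The median of the 96 was -0.30, with 65 below 0 (0.08 with scaling by total library size). For the 24 genes of RNA polymerases I and III the median was -0.40 and none passed (4 lower at an unadjusted p under 0.05 in edgeR's test; DESeq2 and limma-voom each called 1 lower). Their member with the smallest p, RPA135, was at 709 and 478 CPM and then at 256 and 288 CPM (-1.12 ± 0.26, edgeR adjusted p = 0.0629).

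Both rises concern genes with well-known regulatory letters before their start codons. RNR1 encodes the large subunit of ribonucleotide reductase, which makes the precursors of DNA and is transcribed in late G1 through the MluI cell cycle box, ACGCGT. HSP42 encodes a small heat-shock protein, and the stress factors Msn2 and Msn4 bind the letters AGGGG. Windows of 100 bases are shown, that of RNR1 with 2 of its 4 matches and that of HSP42 with all 3, read 5′ to 3′ toward the gene in build R64 from RefSeq (chrV:298564-298663 and chrIV:806376-806475, both plus strand), with matches on either strand in capitals.
RNR1: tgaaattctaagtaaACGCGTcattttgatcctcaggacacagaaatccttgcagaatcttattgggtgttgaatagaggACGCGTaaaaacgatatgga
HSP42: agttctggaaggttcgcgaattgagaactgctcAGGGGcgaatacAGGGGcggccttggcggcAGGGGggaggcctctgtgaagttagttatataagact

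The 500 bases before the start codon of RNR1 hold ACGCGT 4 times. Of 6019 genes, 5.4% have it at least once in that window and 0.0166% at least 4 times. The last share includes RNR1 itself, and the share with at least 3 is the same 0.0166%. Those of HSP42 hold AGGGG 3 times, which 1.83% of genes reach. The same 500 bases of CLB5 and PCL1, whose values follow, hold ACGCGT 0 times. These matches are a description of the letters only.

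RNR1 was at 346 and 378 CPM at 15 min and at 740 and 822 CPM at 30 min, against 482 and 483 CPM at 0 min and 478 and 507 CPM in the control. The 15 min libraries were the lowest of the 8 and the 30 min libraries the highest. The log2 change was 1.11 ± 0.24 (edgeR adjusted p = 0.0474). HSP42 was at 109 and 113 CPM at 15 min and at 215 and 390 CPM at 30 min, with 79.4 and 89.0 CPM at 0 min and 64.3 and 77.7 CPM in the control. Both libraries at 30 min were above the other 6 but differed from each other, and the log2 change was 1.45 ± 0.31 (edgeR adjusted p = 0.0474).

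The list of genes transcribed in G1 and S phase leaned upward with RNR1. Of 33 tested, 27 had a log2 difference above 0, with a median of 0.50, and RNR1 alone passed in edgeR's test, beside 0.0323% of all features. DESeq2 called 3 of them higher and limma-voom 1. The S-phase cyclin gene CLB5 stood at 6.91 and 17.6 CPM at 15 min and at 38.3 and 110 CPM at 30 min (log2 2.60 ± 0.65, edgeR adjusted p = 0.0896). The G1 cyclin gene PCL1 stood at 83.3 and 111 CPM and then at 164 and 285 CPM (1.20 ± 0.33, edgeR adjusted p = 0.116). Neither CLB5 nor PCL1 had overlapping libraries, but that was a condition of the rule that named them. Both had their highest value in 30 min replicate 2. Histone genes, which are also made in S phase, had a median of 0.46 over 11 with none passing (4 higher and 1 lower at an unadjusted p under 0.05 in edgeR's test; DESeq2 called 1 higher and limma-voom none).

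HSP42 was the only one of 25 cytosolic chaperone genes to pass in edgeR's test (DESeq2 and limma-voom each called 2 higher), and the median of these genes was 0.21. Members differed in direction: HSP82, an Hsp90 gene, was at 228 and 189 CPM at 15 min and at 406 and 398 CPM at 30 min (log2 0.95 ± 0.26, edgeR adjusted p = 0.117), while the small heat-shock gene HSP26 was at 64 and 86.7 CPM and then at 23.1 and 14.5 CPM (-1.99 ± 0.49, edgeR adjusted p = 0.0882). The other features with the smallest p on the higher side were GPD1, REH1, TMC1, YBR071W and CIT1, with log2 differences from 1.10 to 1.59 and edgeR adjusted p from 0.0763 to 0.115. GPD1, which makes glycerol 3-phosphate, stood at 128 and 190 CPM and then at 288 and 420 CPM.

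OLE1, the fatty acid desaturase of the ER, and a few genes of the low-oxygen response followed another course: they were high at 15 min and lower again at 30 min. Many of the latter are held down in air by the repressor Rox1, whose sites share the letters ATTGTT. Windows of 100 bases are shown for OLE1 (2 of its 3 matches) and ANB1 (3 of 4), both of which passed the test of the 2 intervals against each other, in build R64 from RefSeq (OLE1 at chrVII:398407-398506, plus strand; ANB1 at chrX:525566-525665, minus strand), with matches on either strand in capitals.
OLE1: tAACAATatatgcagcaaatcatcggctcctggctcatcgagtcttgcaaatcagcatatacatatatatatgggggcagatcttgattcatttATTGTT
ANB1: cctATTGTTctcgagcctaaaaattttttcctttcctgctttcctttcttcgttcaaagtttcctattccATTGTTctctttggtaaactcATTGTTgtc

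In the 500 bases before the start codon, ANB1 holds these letters 4 times, as 0.432% of genes do or exceed, OLE1 3 times (3.07% of genes have at least 3), ROX1 2 times (15.1% have at least 2) and TIR1 once (48.9% have at least 1). CIT2, whose values are given below, also holds them 3 times. No use of any of these matches was measured here.

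OLE1 was at 766 and 764 CPM at 0 min, at 1956 and 1771 CPM at 15 min, at 791 and 760 CPM at 30 min, and at 915 and 867 CPM in the control. The libraries at 15 min stood above the other 6. The log2 change was 1.28 from 0 to 15 min (edgeR adjusted p = 0.0310) and -1.26 ± 0.24 from 15 to 30 min (edgeR adjusted p = 0.0317). ANB1, an eIF5A gene of cells short of oxygen, was at 28.6 and 10.8 CPM, then at 184 and 165 CPM, then at 42.1 and 24.7 CPM, and at 34.9 and 12 CPM in the control. ANB1 passed from 0 to 15 min (log2 3.15, edgeR adjusted p = 0.0310) but not from 15 to 30 min (-2.38 ± 0.55, edgeR adjusted p = 0.0709).

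The change over the second interval was tested against that over the first, and 2 features (0.0323%) passed, both with the second change lower. The difference of log2 changes was -2.55 ± 0.39 for OLE1 (edgeR adjusted p = 0.0282) and -5.53 ± 0.87 for ANB1 (edgeR adjusted p = 0.0338). Both intervals share the 15 min libraries, so a feature high by chance at 15 min would appear in this test, and no feature passed it without 15 min replicate 1 (96 at an unadjusted p under 0.05) or without 30 min replicate 2 (441). The ROX1 gene came next, at 102 and 127 CPM, then 370 and 325 CPM, then 214 and 201 CPM, with a difference of -2.34 ± 0.43 (edgeR adjusted p = 0.0753). The cell wall gene TIR1 went through 19.8 and 10.1 CPM, 175 and 269 CPM, and 57.8 and 36.5 CPM, with a difference of -6.12 ± 1.05 (edgeR adjusted p = 0.117). Such a course was not particular to low-oxygen genes. CIT2 went through 127 and 93.0 CPM, 297 and 328 CPM, and 180 and 212 CPM (-2.18 ± 0.44, edgeR adjusted p = 0.117). GPH1/YPR160W-A, of the trehalose and glycogen list, went through 37.2 and 76.4 CPM, 168 and 207 CPM, and 69.3 and 49.5 CPM (-3.38 ± 0.68, edgeR adjusted p = 0.117).

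**Figure D5:**
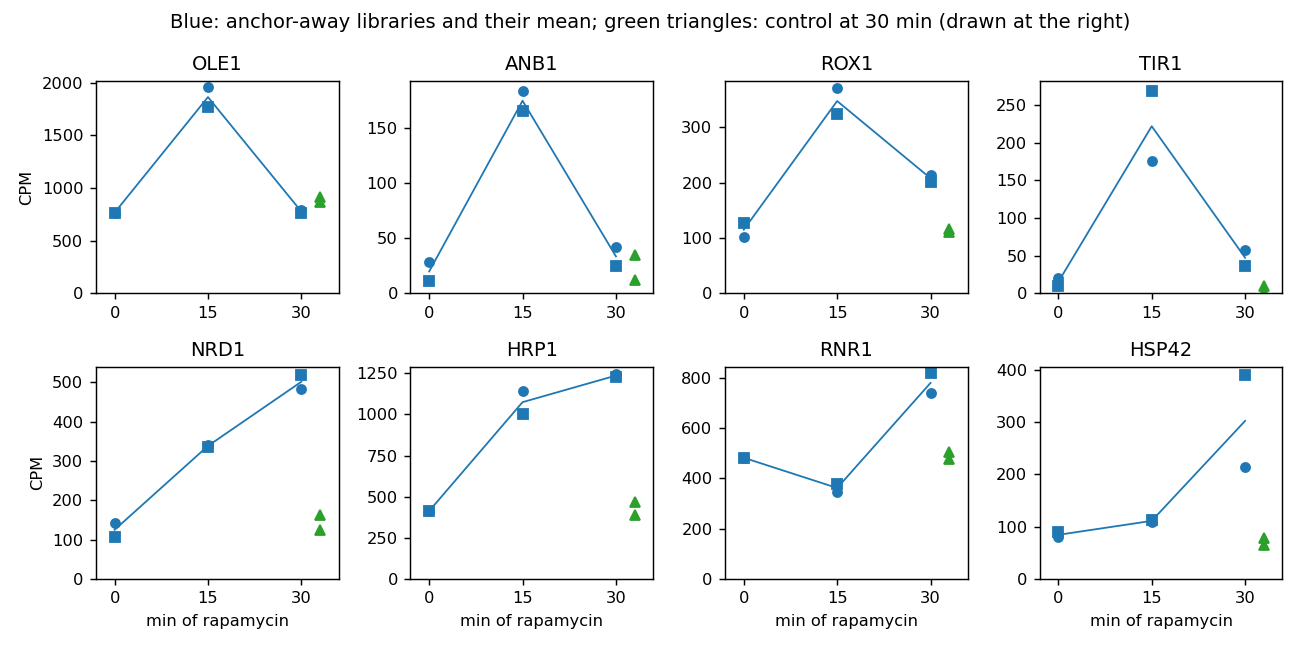
CPM of 8 genes in each anchor-away library (blue; circles for replicate 1, squares for replicate 2, lines through the means) by minutes of rapamycin, with the 2 control libraries as green triangles. OLE1, ANB1, ROX1 and TIR1 peak at 15 min, while the means of NRD1, HRP1 and HSP42 are highest at 30 min and RNR1 is lowest at 15 min.

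Of 21 low-oxygen genes tested, OLE1 alone fell from 15 to 30 min in edgeR's test, 19 were below 0, and the median was -0.63; the median of the same genes from 0 to 15 min was 0.84. DESeq2 called 4 of them lower and limma-voom 3. The 2 medians share the 15 min libraries, so they are not independent. Among features with the smallest p on the positive side of the interval test, YME1, a mitochondrial protease gene, was at 257 and 215 CPM, then 54.7 and 113 CPM, then 157 and 190 CPM, and the difference of 2.54 ± 0.59 did not pass (edgeR adjusted p = 0.241).

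Among genes for nuclear RNA surveillance and 3′ end formation, NRD1, HRP1 and TRF5 had risen by 15 min and had mean levels at 30 min that were no lower. NRD1, an RNA-binding factor that ends short non-coding transcripts and its own messenger RNA early, was at 142 and 107 CPM at 0 min, at 341 and 335 CPM at 15 min and at 484 and 520 CPM at 30 min, against 125 and 163 CPM in the control. It had passed from 0 to 15 min (log2 1.44, edgeR adjusted p = 0.0275), but its difference from 15 to 30 min, 0.57 ± 0.25, did not pass (edgeR adjusted p = 0.426). HRP1, a cleavage factor subunit, was at 410 and 415 CPM at 0 min, at 1144 and 1006 CPM at 15 min and at 1248 and 1226 CPM at 30 min. It had passed from 0 to 15 min (log2 1.38, edgeR adjusted p = 0.0250) and did not pass from 15 to 30 min (0.20 ± 0.24, edgeR adjusted p = 0.853). TRF5, a poly(A) polymerase of nuclear RNA decay, was at 32.9 and 35.5 CPM at 0 min, at 160 and 96.2 CPM at 15 min and at 153 and 160 CPM at 30 min. Its log2 difference was 1.91 from 0 to 15 min (edgeR adjusted p = 0.0339) and 0.29 ± 0.35 from 15 to 30 min (edgeR adjusted p = 0.859). HRP1 and TRF5 were chosen after their values were seen, and the lists did not move with them: from 0 to 15 min the median was -0.03 for cleavage and polyadenylation genes and -0.25 for genes of the nuclear exosome and its TRAMP cofactor. For the list of NRD1 and its partners (3 genes) the median was -0.49 from 0 to 15 min and 0.42 from 15 to 30 min. From 15 to 30 min the other lists stood as follows. Cleavage and polyadenylation genes had a median of 0.26 over 23, genes of the nuclear exosome and its TRAMP cofactor -0.11 over 25 (0.28 with scaling by total library size), and genes of messenger RNA packaging and export 0.03 over 31; none passed in edgeR's test, DESeq2 or limma-voom, and at an unadjusted p under 0.05 edgeR placed 1, 1 and 2 of them lower and 0, 0 and 1 higher.

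CUTs and SUTs, both classes of non-coding transcripts, took a larger share of the counts at 30 min than at 15 min, but no single one passed. Cryptic unstable transcripts (CUTs), which the nuclear exosome normally removes, made up 0.122% ± 0.00453 of counts at 15 min and 0.182% ± 0.0220 at 30 min (mean ± SD, n = 2), 1.49 times as much. Stable unannotated transcripts (SUTs) made up 0.308% ± 0.0152 and 0.415% ± 0.0513, a ratio of 1.35. In both classes the libraries of the 2 times did not overlap, but the exact permutation test (2-sided) gave p = 0.33, the smallest that 2 libraries against 2 can give. Small nucleolar RNAs had a ratio of 1.14 (1.30 without their largest feature), but scaled by the TMM factors they summed to 4351 and 4920 CPM at 15 min and to 3881 and 4405 CPM at 30 min, and 17 of the 27 tested were below 0, with a median log2 difference of -0.25. Spliceosomal RNAs had a ratio of 1.26 in shares, while their TMM-scaled sums overlapped, at 24109 and 18593 CPM and then 17823 and 24732 CPM. The 4 other non-coding RNAs made up 4.58% and 5.86% of counts at 15 min and 6.37% and 5.57% at 30 min, which overlap (exact permutation p = 0.667), and all 4 were below 0, with a median of -0.40. ORF transcripts had a ratio of 0.984. The ratio of introns was 0.769 and became 1.01 without the HAC1 intron.

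Over all tested features of each class, the median log2 difference did not show this shift. The median log2 difference of the 323 CUTs tested was 0.00, with 162 above and 161 below 0, after a median of 1.18 from 0 to 15 min. None passed in edgeR's test (3 higher and 1 lower at an unadjusted p under 0.05), DESeq2 or limma-voom. Low counts limit these values: 73.9% and 41.1% of all 925 CUTs were at 0 counts in the 2 libraries at 15 min, and 28% and 80.9% in those at 30 min. Of the 94 CUTs with at least 1 count in all 4 libraries, 61 had a higher mean CPM at 30 min. In 19 of the 94 both 30 min libraries lay above both 15 min libraries, and in 11 both lay below. Over all features tested these shares were 18.7% and 22.2%, and the 94 were not tested as a set. The median of the class moved to 2.81 without 15 min replicate 2 and to -5.56 without 30 min replicate 1. Scaled by the TMM factors, the summed level of all CUTs was 1368 and 1312 CPM at 15 min and 1559 and 1557 CPM at 30 min. For SUTs the sums were 3471 and 3270 CPM and then 3556 and 3536 CPM, and the median log2 difference of the 507 tested was -0.09, with 271 below 0.

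Several lists of metabolic genes lay below 0 without a member that passed in edgeR's test. Targets of Gcn4 in amino acid synthesis had a median of -0.40, with 40 of 49 below 0 and 13 lower and 1 higher at an unadjusted p under 0.05; DESeq2 called 2 lower and limma-voom 1. ILV1, which starts isoleucine synthesis, had the smallest p of this list, at 218 and 227 CPM and then 114 and 85.3 CPM (-1.16 ± 0.26, edgeR adjusted p = 0.0626). Ergosterol synthesis had a median of -0.50, with 21 of 25 below 0 and 7 lower at an unadjusted p under 0.05; DESeq2 called 5 lower and limma-voom 1. Glycolysis and fermentation had a median of -0.47 over 25, with 4 lower and 1 higher at an unadjusted p under 0.05; DESeq2 called 3 lower and limma-voom 1. TDH1, an isoform of glyceraldehyde-3-phosphate dehydrogenase, was at 661 and 821 CPM at 15 min and at 165 and 39.8 CPM at 30 min, with a log2 difference of -2.85 ± 0.61 (edgeR adjusted p = 0.109).

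Genes under nitrogen catabolite repression, which respond when rapamycin inhibits the TOR kinase in strains that are sensitive to it, had a median of 0.35 over 37, after 0.22 from 0 to 15 min. None passed in edgeR's test (4 higher and 2 lower at an unadjusted p under 0.05), DESeq2 called 1 higher and limma-voom none. The ammonium permease gene MEP1 had the smallest p, at 34.8 and 46.4 CPM and then 70.4 and 126 CPM (1.27 ± 0.38, edgeR adjusted p = 0.160). Targets of the stress factors Msn2 and Msn4 had a median of 0.15 over 44, and none passed in edgeR's test. In that test 2 were higher and 4 lower at an unadjusted p under 0.05. DESeq2 called 1 higher and 1 lower, and limma-voom 1 lower. HSP26, given above with the chaperones, is also on this list and lay on the lower side (-1.99 ± 0.49, edgeR adjusted p = 0.0882).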

How the data were processed

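The authors deposited whole-number read counts per annotated feature, with no normalisation. The submitters' processing notes list HTSeq 0.5.3, GSNAP, bedtools 2.17.0 and, as the genome, R64. How reads were counted, with which strand setting, and whether duplicates were dropped is not given in the sources used here. Per the labels' protocols, ribosomal RNA was depleted, RNA of fission yeast was spiked in, and the libraries keep the strand. No spike-in features (0) are in the table. The library called 30 min replicate 2 here has different replicate numbers in its title and its description, and the latter was used.

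From 7711 entries, 29 repeats and 24 that shadowed a gene were removed, leaving 7658. Another 297 of these are composites of several genes. Reference names (R64) matched 5551 of 5845. The total of counts per library ranged from 4832947 to 17023011. Features were kept by filterByExpr (edgeR 4.0.16, R 4.3.3; minimum count of 10), scaled with TMM factors, and fitted in 1 quasi-likelihood model over all 8 libraries with 1 term per group (4 residual degrees of freedom, biological coefficient of variation 0.611). Tests were 2-sided, with Benjamini-Hochberg adjustment over all 6191 features and a threshold of 0.05; SE is that of the log2 fold change. p-values measure the spread between libraries described as biological replicates. CPM are counts relative to the TMM-scaled total. Alternatives included DESeq2 1.42.0 and voom in limma 3.58.1.

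The comparison, the gene lists and the motifs were chosen with earlier results of these data known. The rule for named features takes the anchor components, the 10 largest falls and rises that passed with a mean of at least 50 counts and no overlap, filled up by smallest p, the member with the smallest p and that with the highest mean in each list, and 5 features per direction of the interval test; the other called features were named after their values were seen. Motifs were searched in the 500 bases before each start codon on both strands. One paralog of a ribosomal protein gene is not reported here. The gene lists not described above, markers and the anchor system apart, had median log2 differences from -0.98 (RNase P and MRP, 9 genes) to 0.45 (peroxisomal fatty acid oxidation, 26 genes), and SOD1 was their only member to pass in edgeR's test.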

Additional observations from a re-analysis of the deposited data

Results flagged for a closer look

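For 2 features the change from 15 to 30 min differed from that from 0 to 15 min in a direct test of the difference. OLE1 went up and then down, and the second log2 change minus the first was -2.55 (edgeR adjusted p = 0.0282). ANB1 did the same with a difference of -5.53 (edgeR adjusted p = 0.0338). In both, each library at 15 min was above each library at 0 and 30 min.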

How the results depend on the processing

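All 28 called features kept their direction in 21 alternatives (RPB11 could be tested in 20). They were picked from these same libraries with no overlap between the times, so a kept direction is no independent check of them. Of 587 combinations of a called feature with an alternative, 261 lost the call. Against 28 features, 8 passed with DESeq2 size factors, 5 with total library size, 0 with scaling on mitochondrial features (161 at an unadjusted p under 0.05), 133 with no filter on low counts, 1 with a mean count of at least 50, 18 with the robust estimate off, 0 without the 3 libraries with over 20% of features at 0 (427 at an unadjusted p under 0.05), 160 in DESeq2 and 76 in limma-voom. Leaving out 1 library gave 0 to 282: without a 0 min library 70 and 98, and without control replicate 1, 49. For the second interval against the first, 2 features passed; the counts were 1 with upper-quartile scaling, 0 with total library size (531 at an unadjusted p under 0.05), 0 with mitochondrial scaling (142), 51 with snoRNA scaling, 31 with no filter, 1 with a mean of at least 50, 0 without the 3 libraries (248), 34 in DESeq2, 23 in limma-voom, and 0 to 31 with 1 library left out. Scaling on snoRNA features moved the median of all features to 0.14.

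The median of ribosomal protein genes was -0.27 with total library size and -0.90 without the 3 libraries; with 1 library left out it ranged from -0.90 to -0.46. The CUT median ranged from -5.56 to 2.81 with 1 library left out. Class ratios without the largest feature were 1.30 for snoRNAs and 1.01 for introns. Of the features named by rule for the anchor, by p or by the interval test, or described with values in the text, that had not passed (642 combinations with an alternative), 3 changed sign: FPR1 (range -2.71 to 6.86 with 1 library left out, lowest without 30 min replicate 1), YLR342W-A/GAS2 (-0.0594 with the replicate block; -0.95 to 0.87 with 1 left out, lowest without 30 min replicate 1) and MBF1 (-0.17 without the 3 libraries; -0.0672 to 1.03 with 1 left out, lowest without 30 min replicate 2). Of 1175 medians of lists and classes under the alternatives, 112 had the opposite sign. The cause of these changes was not tested, apart from fewer samples or features.

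The deviations of same-numbered libraries at 15 and 30 min had a correlation of -0.078, so the numbers were not treated as pairing the samples; with the replicate block 37 features passed, 25 of them among the 28, and 3 passed in the interval test. Both uses of the replicate numbers follow the description of 30 min replicate 2, whose title gives another number. Depth limits CUTs and other features of few counts most.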
